A study of Homo sapiens with 6 samples.

Results

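The MYC and MAX network is a set of transcription factors of the basic helix-loop-helix leucine zipper class. This report describes the mRNAs of 10 of its genes, which were listed by gene symbol with earlier results of these data known. They are the activator MYC, its partner MAX, the MAX-binding repressors MXD1, MXD3, MXD4, MXI1, MNT and MGA, and the factors MLX and MLXIP of the neighbouring MLX branch. All 10 symbols were found among the 23062 identifiers of the deposited tables, and all 10 passed the filter on low values, as did 12359 identifiers in all.

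RNA was sequenced from wild-type DU145 cells, an androgen-independent human prostate cancer cell line, in 3 control libraries of cells kept in MEM medium for 48 h and 3 libraries of cells treated with taraxasterol (TAX), a plant triterpene, at its IC50 for 48 h. TAX was dissolved in DMSO, and no source used here says whether the control cells also received DMSO, so TAX and its solvent cannot be told apart. The labels do not say that the 3 libraries of a group came from separate cultures, so p-values measure only the spread between these libraries. The study examined c-Myc by western blotting and real-time qPCR in these cells as a readout of proliferation. It reported less c-Myc after TAX, as protein and as mRNA, and the same in PC3 cells. It also reported less c-Myc staining in DU145 xenografts, and more c-Myc when Recilisib, an AKT activator, was added to TAX. The comparison here asks how the mRNAs of MYC and its network partners stood in the sequenced libraries.

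MYC activates genes only as a dimer with MAX. The dimer binds the E-box, a short DNA motif with the letters CACGTG. The MXD proteins, MXI1, MNT and MGA also pair with MAX and bind the same motif, where they repress, so that activators and repressors compete for MAX. MLX pairs with MLXIP, also called MondoA, which answers to glucose 6-phosphate, and with some of the MXD proteins and MNT, so that it joins both branches. MYC is a common oncogene of prostate cancer.

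The values are FPKM, fragments of a transcript scaled to its length and to the size of the library, so that levels can be compared between genes. Read counts were not given, so the depth is unknown and no counting interval can be set. The summed FPKM lay between 322483 and 363724 per library, and Pearson's r across genes, which are not independent replicates, was 0.991 to 0.995 between libraries of one group. The epithelial markers KRT8, KRT18, EPCAM and CDH1 summed to 330 to 425 FPKM in control and 413 to 455 FPKM in TAX libraries. Of 22 marker genes for prostate and other cell types, 6 were listed at 0 in all 6 libraries, which were KLK3, KLK2, COL1A2, DCN, LUM and CD3E. The 4 leukocyte markers summed to 20.3 to 26.9 FPKM in control and 32.7 to 33.9 FPKM in TAX libraries, nearly all of it CD68, a lysosomal gene, while PTPRC, which defines leukocytes, did not exceed 0.00692 FPKM. The 5 fibroblast markers lay apart in the other direction, at 1.93 to 2.11 FPKM in control and 1.48 to 1.54 FPKM in TAX libraries, mostly COL1A1, a collagen gene. The part of these differences in the values of the network genes was not tested.

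MYC was the most abundant of the network mRNAs in DU145 cells, and its difference after TAX treatment was within the spread between libraries. In bulk RNA, fewer cells that express a gene and less of its RNA per cell cannot be told apart. In the control libraries MYC had 30.7, 38.5 and 25.2 FPKM in replicates 1, 2 and 3. In the TAX libraries it had 40.0, 34.0 and 36.4 FPKM. TAX replicate 1 was the highest of the 6 libraries and control replicate 3 the lowest, and the groups overlapped because control replicate 2 lay above TAX replicates 2 and 3. Mean MYC was 31.4 ± 6.70 FPKM in control cells, and 36.8 ± 3.02 FPKM followed TAX (SD, n = 3 per group). The log2 fold change of MYC was 0.24 (standard error, SE, 0.13, 95% interval -0.06 to 0.54, adjusted p = 0.566 from limma), and the exact two-sided permutation test gave p = 0.3, where 3 libraries against 3 cannot go below 0.1. On the scale of FPKM + 1 the interval reached from 0.960-fold to 1.45-fold. The size of the MYC difference rested on single control libraries, with a log2 fold change of 0.39 without control replicate 2 (unadjusted p = 0.00536, adjusted p = 0.224 from limma) and 0.09 without control replicate 3. MYC lies on chromosome 8 from 127735434 to 127741434 (GENCODE 29, GRCh38, plus strand), and no other annotated gene overlaps it.

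**Figure D1:**
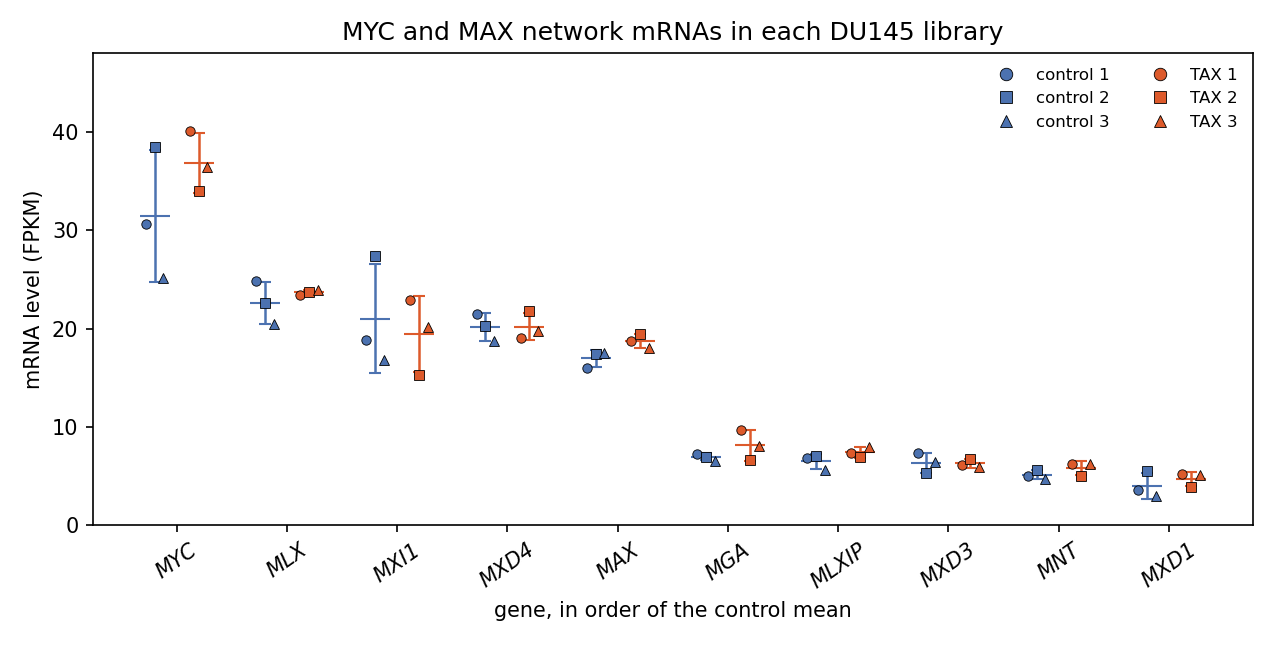
FPKM of the 10 network mRNAs (vertical axis) in each of the 6 libraries, with genes on the horizontal axis in order of the control mean. Blue symbols are control and orange symbols TAX libraries, and bars give the mean ± SD of 3 libraries. MYC was highest at 25.2 to 40.0 FPKM, and the groups were apart for MAX only.

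MAX was the only member whose TAX values all lay above its control values. MAX is the obligate partner of MYC and of the repressors. Its FPKM was 16.0, 17.4 and 17.5 in the control replicates and 18.8, 19.5 and 18.1 in the TAX replicates. The gap between the groups was narrow beside the distance between control replicates 1 and 3. The log2 fold change of MAX was 0.14 (SE 0.08, 95% interval -0.03 to 0.31, adjusted p = 0.568 from limma; exact permutation p = 0.1, two-sided, the smallest possible here). After median centring the log2 fold change of MAX was 0.080, and after quantile normalization 0.073 (unadjusted p = 0.336 and 0.377 from limma). Having 1 of 10 members without overlap is to be read beside the 17.9% of all tested genes whose groups did not overlap, 14.6% in the higher direction and 3.34% in the lower. MAX lies on chromosome 14 from 65006174 to 65102695 on the minus strand and overlaps FNTB and CHURC1-FNTB on the other strand. Whether the counting used strand is not given in the sources used here, so that reads of MAX and of these genes may not have been told apart.

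Across the network, 0 of the 10 mRNAs passed an adjusted p under 0.05 in limma, and 0 had an unadjusted p under 0.05, alone or with a 1.5-fold change. Among all 12359 genes tested, 0.477% passed the adjusted threshold, 10.1% had an unadjusted p under 0.05, and 0.437% had this p and at least a 1.5-fold change. A count of 0 among 10 genes is near these background shares. The adjusted p of the members ranged from 0.566 to 0.989. The log2 fold change was above 0 for 8 of the 10 members, beside 69.1% of all genes tested, where the sign of MXD4 turned after quantile normalization and after median centring. The median log2 fold change was 0.14 over the members and 0.054 over all genes. Network members at an unadjusted p under 0.05 appeared only when single libraries were left out, with MYC and MXD1 without control replicate 2, MAX without control replicate 3, and MGA and MNT without TAX replicate 2. Of all genes tested in these fits, 1635 of 12283 had such a p without control replicate 2. It was 1398 of 12292 without control replicate 3 and 962 of 12280 without TAX replicate 2.

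**Figure D2:**
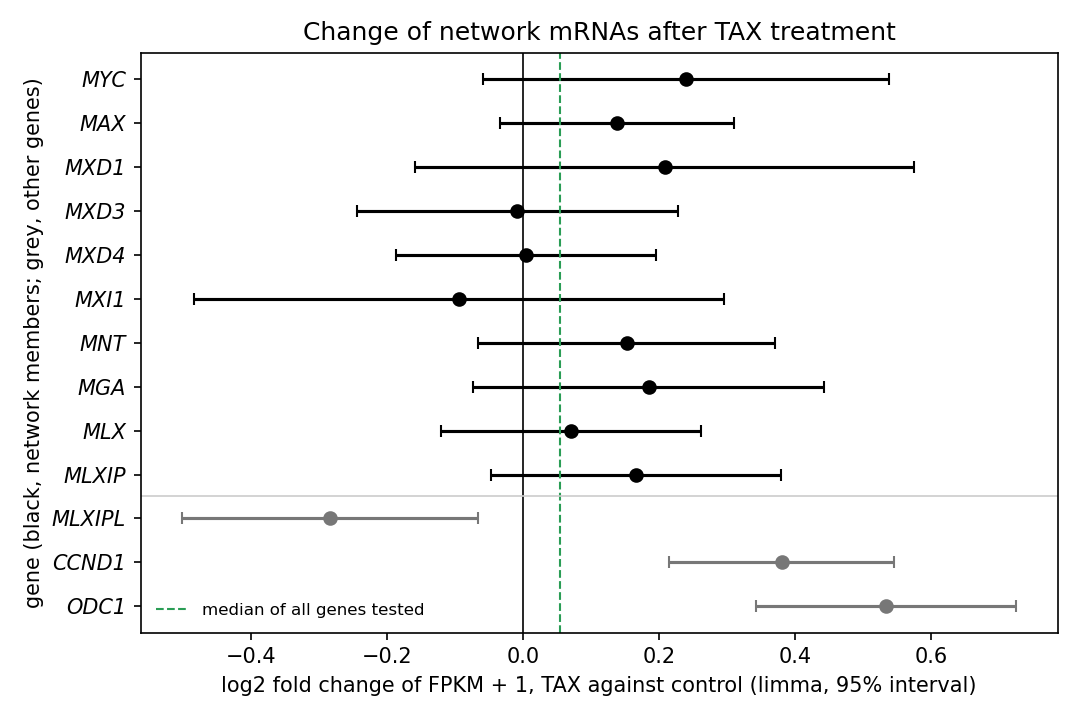
Log2 fold change of FPKM + 1 between TAX and control cells (horizontal axis) with the 95% interval from limma for each gene (vertical axis). Black points are the 10 network members and grey points 3 other genes named in the text, the solid line marks 0 and the dashed line the median of all tested genes at 0.054. The intervals of all 10 members include 0.

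The levels of the members lay in 2 ranges that did not overlap in any library. The upper range held MYC, MLX, MXI1, MXD4 and MAX, whose control means were 31.4, 22.6, 21.0, 20.1 and 17.0 FPKM. The lower range held MGA, MLXIP, MXD3, MNT and MXD1, with 6.97, 6.52, 6.38, 5.16 and 4.04 FPKM. Among the control libraries MYC stood apart from MLX, and MXD4 from MAX, but MXI1 overlapped MAX in the control libraries and MXD4 overlapped it in the TAX libraries, so the place of MAX in the upper range is not resolved. In those control libraries MLX, MXI1 and MXD4 overlapped from neighbour to neighbour, as did all 5 genes of the lower range, so their order there is not resolved beyond the spread. After TAX every MLX value lay above those of MXI1 and MXD4, and every MLXIP value above those of MXD3. In the TAX libraries the order was the same except that MXD4 (20.2 FPKM) came before MXI1 (19.5 FPKM). In the control mean MYC was above 83.4% of the 12359 tested genes, MAX above 67.9% and MXD1 above 26.1%.

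The repressors MXD4 and MXI1 made up most of the repressor mRNA. They recruit the SIN3-HDAC corepressor, which removes acetyl groups from histones. MXD4 had 21.5, 20.3 and 18.7 FPKM in the control and 19.1, 21.8 and 19.7 FPKM in the TAX replicates. The groups interleaved, with a log2 fold change of 0.00 (95% interval -0.19 to 0.19, adjusted p = 0.989 from limma). MXI1 had 18.9, 27.3 and 16.8 FPKM in the control and 22.9, 15.3 and 20.2 FPKM in the TAX replicates. Its highest value was in control replicate 2 and its lowest in TAX replicate 2, and its 95% interval was the widest of the members, from -0.48 to 0.29 around a log2 fold change of -0.10.

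The other MXD genes were low. MXD1, an early gene of differentiation, had 3.56, 5.55 and 3.02 FPKM in the control and 5.19, 3.87 and 5.14 FPKM in the TAX replicates. Like MYC, MXD1 was high in control replicate 2 and in TAX replicates 1 and 3, and its log2 fold change of 0.21 (95% interval -0.16 to 0.57) was 0.41 without control replicate 2 and 0.06 without control replicate 3. The annotated span of MXD1 overlaps that of SNRNP27 on the same strand, which had a mean of 26.3 FPKM, so reads of the pair may not have been told apart. MXD3, which is known from S phase, had 7.35, 5.33 and 6.45 FPKM in the control and 6.18, 6.77 and 5.94 FPKM in the TAX replicates. It was lowest in control replicate 2, where MYC, MXD1 and MXI1 were highest among the controls, and its log2 fold change was -0.01 (95% interval -0.24 to 0.23). MXD3 overlaps RAB24 on the same strand and PRELID1, at 72.6 FPKM, on the other.

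MNT and MGA are large repressors that most dividing cells express together with MYC. MNT had 5.06, 5.67 and 4.75 FPKM in the control and 6.27, 5.06 and 6.24 FPKM in the TAX replicates. TAX replicates 1 and 3 were above all controls, and TAX replicate 2 lay among them (log2 fold change 0.15, 95% interval -0.07 to 0.37). MGA, which also serves as the scaffold of the Polycomb complex PRC1.6, had 7.31, 7.00 and 6.59 FPKM in the control and 9.71, 6.60 and 8.10 FPKM in the TAX replicates. The MGA values showed the same arrangement, with TAX replicates 1 and 3 above all controls and TAX replicate 2 near the lowest (log2 fold change 0.18, 95% interval -0.07 to 0.44). Without TAX replicate 2 the log2 fold change was 0.24 for MNT and 0.31 for MGA, with unadjusted p of 0.0414 and 0.0153 and adjusted p of 0.629 and 0.508 from limma. Without TAX replicate 1 it was 0.11 for MNT and 0.063 for MGA.

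**Figure D3:**
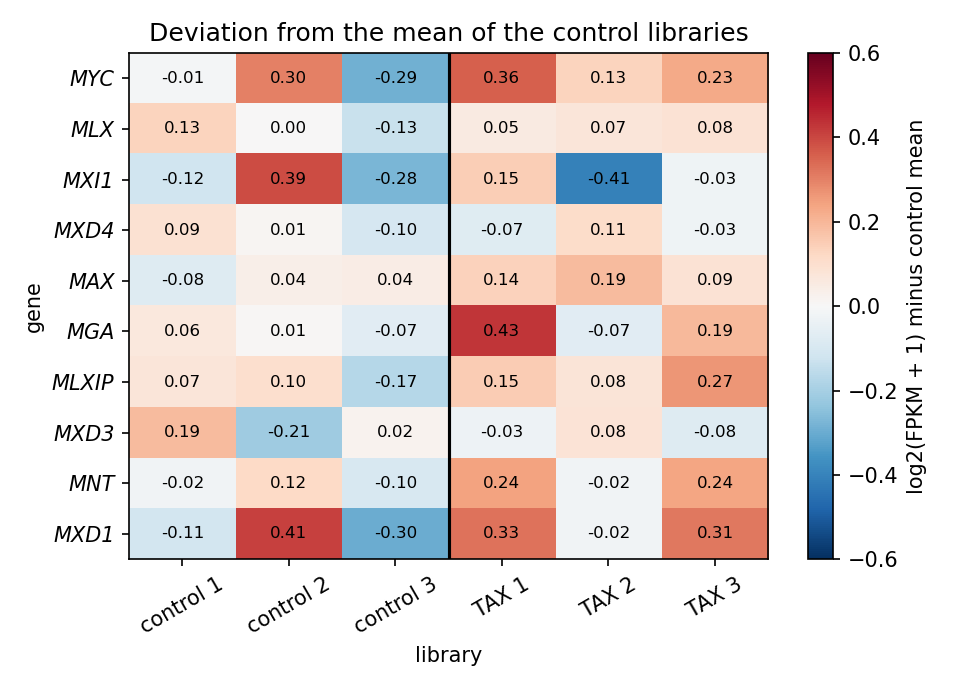
Deviation of each library (horizontal axis) from the mean of the control libraries, in log2(FPKM + 1), for the 10 network mRNAs (vertical axis), with red above and blue below that mean. MYC, MXI1 and MXD1 deviated by 0.30 to 0.41 in control replicate 2, and TAX replicate 2 was the lowest TAX library for 6 of the 10 genes.

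Libraries of one group thus differed by as much as the groups did. Control replicate 2 held the highest control value of 5 members, beside 44.6% of all tested genes. Control replicate 3 held the lowest control value of 8 members, beside 72.3% of all genes. TAX replicate 2 held the lowest TAX value of 6 members, beside 34.7% of all genes. The coefficient of variation among control libraries was 21.3% for MYC, 32.9% for MXD1 and 26.5% for MXI1, but 4.99% for MAX and 5.15% for MGA. The part that these libraries play in each value was not tested beyond leaving them out.

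The FPKM of MYC was then set against the summed FPKM of MXD1, MXD3, MXD4, MXI1 and MNT, which compete with MYC for MAX. MGA, also a MAX-binding repressor, was not part of this sum. The repressor sum was 56.3, 64.1 and 49.7 FPKM in the control and 59.6, 52.8 and 57.3 FPKM in the TAX replicates. Its group means were 56.7 ± 7.21 and 56.5 ± 3.47 FPKM (SD, n = 3 each), and within each group the libraries had the same order for this sum as for MYC. The ratio of MYC to the repressor sum was 0.544, 0.600 and 0.506 in the control replicates. It was 0.672, 0.645 and 0.636 in the TAX replicates, so that every TAX library lay above every control library. Of all genes tested, 17.9% had groups without overlap, 14.6% in the higher direction. That share is of single genes, and none was computed for ratios such as this, so the 2 are unlike measures. The TAX mean of the ratio was 1.18 times the control mean, and 1.14 to 1.24 times with each library left out in turn. Groups that do not overlap keep the TAX mean higher whichever library is left out. This ratio is a description of mRNA levels, given without a test, and says nothing of protein or of dimers. The ratio of MYC to MAX overlapped between the groups, at 1.85 ± 0.391 without and 1.96 ± 0.197 with TAX (SD, n = 3 each). MXD4 and MXI1 together held 72.4 ± 1.54% of the repressor sum without and 70.1 ± 0.336% with TAX (SD, n = 3 each).

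**Figure D4:**
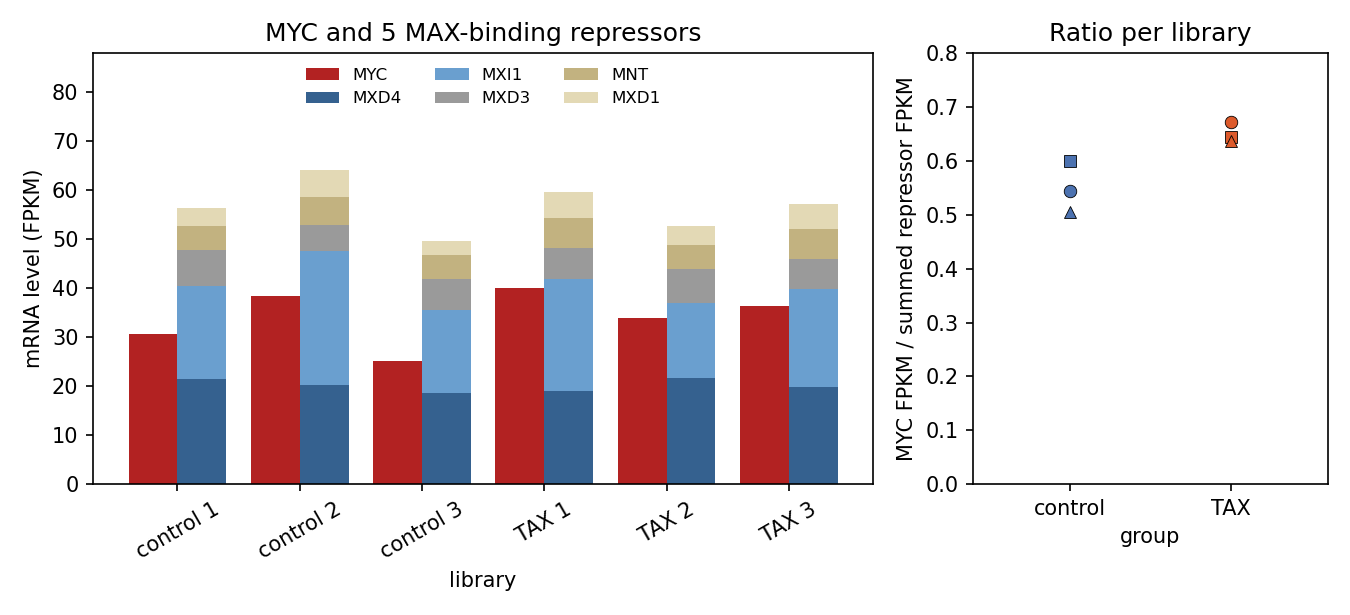
Left, FPKM of MYC (red bars) beside the stacked FPKM of 5 MAX-binding repressors in each library. Right, the ratio of MYC to the repressor sum in each of 3 control (blue) and 3 TAX (orange) libraries, with the axis from 0. The repressor sum lay between 49.7 and 64.1 FPKM, and the ratio was 0.506 to 0.600 in control and 0.636 to 0.672 in TAX libraries.

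In the MLX branch both members were expressed and the genes they are best known to drive were near 0. MLX had 24.8, 22.6 and 20.4 FPKM in the control and 23.4, 23.7 and 24.0 FPKM in the TAX replicates. The TAX libraries were close to each other, with a coefficient of variation of 1.09%, and lay within the range of the controls (log2 fold change 0.07, 95% interval -0.12 to 0.26). The value of MLX was 0.0029 without control replicate 3 and 0.14 without control replicate 1. MLX overlaps PSMC3IP on the other strand. MLXIP had 6.88, 7.04 and 5.65 FPKM in the control and 7.34, 6.92 and 8.01 FPKM in the TAX replicates. Only control replicate 2 overlapped with the TAX libraries (log2 fold change 0.17, 95% interval -0.05 to 0.38, adjusted p = 0.582 from limma), and the value of MLXIP was 0.08 without control replicate 3. MLXIPL, or ChREBP, the glucose-responsive partner of MLX in liver and fat, had 2.47, 1.86 and 1.78 FPKM in the control and 1.40, 1.54 and 1.52 FPKM in the TAX replicates. The groups of MLXIPL did not overlap, and its log2 fold change was -0.28 (SE 0.098, unadjusted p = 0.0155, adjusted p = 0.373 from limma). Without control replicate 1 the log2 fold change of MLXIPL was -0.18 (unadjusted p = 0.0552, adjusted p = 0.471 from limma).

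TXNIP and ARRDC4, the arrestin-like genes most used as readouts of MLXIP with MLX, lay under the filter on low values. TXNIP, which restrains glucose uptake, had 0.104, 0.214 and 0.120 FPKM in the control and 0.101, 0.124 and 0.0945 FPKM in the TAX replicates. ARRDC4 had 0.429 to 0.519 FPKM in control and 0.482 to 0.659 FPKM in TAX libraries. Both overlapped between the groups (exact permutation test, two-sided p = 0.4 for each). The other target genes, HK2, PFKFB3 and KLF10, were tested, and 0 of the 3 had an unadjusted p under 0.05 in limma, beside 10.1% of all genes. All 3 had a log2 fold change above 0, beside 69.1% of all genes, and their median was 0.18 beside 0.054 for all genes. HK2, the first enzyme of glycolysis, was split within both groups, with 18.3, 33.6 and 14.9 FPKM in the control and 34.7, 16.6 and 30.1 FPKM in the TAX replicates.

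The E-box is what the network proteins read, so it was searched for in the promoters of the members, from 250 bases before to 50 bases after each transcript start in RefSeq (GRCh38.p14). The table held promoters of 9 of the 10 members, MYC being the exception. The letters CACGTG, which read the same on both strands, were found in the promoters of 3 of these 9 genes, MXD4, MNT and MLX, beside 8.77% of the 27305 genes in the table. They were also found in the promoter of the target gene ARRDC4, 210 bases before the start. The double site of MLXIP and MLX was searched for on both strands as a pair of CACGNG motifs with 5 bases between them, of which CACGTG is 1 form. It was found in TXNIP and in 0.0732% of all genes. The stretches before the transcript start are shown with the matched letters in capitals, since these are the motifs through which the network could read its own genes and the targets ARRDC4 and TXNIP. They are written on the strand of the gene, and a match is no evidence of binding.
MXD4, chr4:2262315-2262359, minus strand: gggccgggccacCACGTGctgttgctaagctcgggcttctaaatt
MNT, chr17:2401221-2401280, minus strand: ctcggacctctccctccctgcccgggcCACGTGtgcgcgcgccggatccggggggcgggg
MLX, chr17:42567023-42567082, plus strand: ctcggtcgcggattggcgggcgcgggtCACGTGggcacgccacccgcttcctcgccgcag
ARRDC4, chr15:97960466-97960525, plus strand: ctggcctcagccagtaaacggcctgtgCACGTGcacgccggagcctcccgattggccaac
TXNIP, chr1:145996624-145996694, minus strand: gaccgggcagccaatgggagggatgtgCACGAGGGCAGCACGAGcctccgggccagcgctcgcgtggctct

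The motif of MLX begins 50 bases before the transcript start, that of MNT 193 and that of MXD4 238 bases before it. The 3 members with the motif had log2 fold changes of 0.07, 0.15 and 0.00 in the order MLX, MNT and MXD4. The double site of TXNIP begins 88 bases before the start.

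Around the network, few genes of the pathway lists passed a test. The other MYC paralogs were low or absent, since MYCN was listed at 0 in all 6 libraries and MYCL had 0.673 to 0.920 FPKM in control and 0.702 to 0.903 FPKM in TAX libraries. Of the 15 genes for coactivators of MYC, 0 had an unadjusted p under 0.05 in limma (10.1% of all genes), and 13 had a log2 fold change above 0 (69.1% of all genes). The smallest p in this list was that of SMARCB1, a subunit of the SWI/SNF remodelling complex, with 16.8, 19.3 and 9.19 FPKM in the control and 17.8, 23.6 and 19.7 FPKM in the TAX replicates. RUVBL2, an ATPase of MYC-bound chromatin complexes, had a log2 fold change of 0.16 and overlapping groups. Of the 16 genes of the SIN3-HDAC corepressor, through which the MXD proteins act, 8 were higher and 8 lower, beside 69.1% of all genes above 0. An unadjusted p under 0.05 in limma was found for 0 of them, beside 10.1% of all genes. ING1 and ARID4A had the smallest p of that list, with log2 fold changes of -0.15 and -0.13.

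In the list of the MGA-containing complex PRC1.6, 1 of 11 genes had an unadjusted p under 0.05, beside 7.73% of all genes in the higher and 2.41% in the lower direction. It was PCGF6, the subunit that defines this complex, with 9.04, 11.1 and 10.9 FPKM in the control and 11.3, 13.1 and 12.5 FPKM in the TAX replicates. PCGF6 did not overlap between the groups, and its log2 fold change was 0.23 (adjusted p = 0.459 from limma). TFDP1, the dimer partner of E2F6, had a log2 fold change of 0.15.

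Of 19 genes that control the stability of the MYC protein, 18 had a log2 fold change above 0, beside 69.1% of all genes, and 1 an unadjusted p under 0.05, beside 10.1%, while the median, at 0.07, was close to that of all genes. That gene was AXIN1, a scaffold for MYC degradation and for WNT signaling, with 11.6, 12.0 and 9.56 FPKM in the control and 13.9, 12.4 and 12.7 FPKM in the TAX replicates (log2 fold change 0.22, adjusted p = 0.486 from limma). PPP2CA, the catalytic subunit of a phosphatase that prepares MYC for degradation, had a log2 fold change of 0.14. The 1 gene below 0 was FBXW7, at -0.05. The list was not split into genes that promote and genes that oppose MYC degradation, so its counts give no direction for MYC stability. Among the 12 tested genes of 14 that regulate MYC transcription, 0 had an unadjusted p under 0.05 in limma (10.1% of all genes), and 11 were above 0 (69.1% of all genes). E2F1 had 17.8, 18.1 and 16.0 FPKM in the control and 19.3, 20.0 and 19.5 FPKM in the TAX replicates, and YY1 a log2 fold change of 0.15. Of 6 tested factors of other families that bind the E-box, 0 had an unadjusted p under 0.05 in limma (10.1% of all genes). Among them USF2 had a log2 fold change of 0.14 and BHLHE40 of -0.38, with 52.7 FPKM in control replicate 2 and 22.2 FPKM in TAX replicate 2.

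The genes that MYC is known to activate held the only gene of these lists that passed an adjusted p under 0.05. Of 30 such genes 28 were tested, 24 had a log2 fold change above 0 and 4 below, beside 69.1% of all genes above 0, and their median was 0.12 beside 0.054 for all genes. An unadjusted p under 0.05 was found for 5 of them, all higher, beside 7.73% of all genes in that direction. ODC1, the rate-limiting enzyme of polyamine synthesis and a direct MYC target, had 154, 152 and 139 FPKM in the control and 207, 226 and 212 FPKM in the TAX replicates. The log2 fold change of ODC1 was 0.53 (SE 0.09, adjusted p = 0.0297 from limma). Its adjusted p was 0.0582 to 0.130 in the 5 fits without control replicate 1 or 2 or any TAX replicate, and 0.0488 without control replicate 3. With no filter on low values it was 0.123. EIF4A1, an RNA helicase of translation initiation, had 336 to 419 FPKM in control and 443 to 517 FPKM in TAX libraries, with an adjusted p of 0.267 from limma. NME1, DKC1 and CDK4 were the other genes with an unadjusted p under 0.05.

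Genes that MYC is known to repress were mixed. Of 11 such genes 9 were tested, 2 had an unadjusted p under 0.05 and were higher, 3 had it and were lower, beside 7.73% and 2.41% of all genes, and 0 passed the adjusted threshold in limma. The median of the list was -0.15, or -0.20 relative to all genes, and this difference was -0.10 without control replicate 2 and -0.08 without TAX replicate 2. CEBPD, a differentiation factor, had 48.6, 55.4 and 41.4 FPKM in the control and 35.1, 33.0 and 30.9 FPKM in the TAX replicates (log2 fold change -0.53, adjusted p = 0.0854 from limma). THBS1, an inhibitor of angiogenesis, had a log2 fold change of -0.38, and NDRG2 of -0.26. The cell cycle brakes CDKN1A and GADD45A lay on the other side, with log2 fold changes of 0.28 and 0.51, adjusted p of 0.435 and 0.408 from limma and overlapping groups.

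Cyclin D1 was examined by western blotting and qPCR beside c-Myc, and the paper reports lower protein and mRNA of each after TAX, at a time it does not state. The cyclin D1 gene CCND1 had 36.0, 34.2 and 34.5 FPKM in the control and 44.8, 47.1 and 45.3 FPKM in the TAX replicates. The groups were well apart, and the log2 fold change of CCND1 was 0.38 (SE 0.07, adjusted p = 0.0731 from limma). Its adjusted p stayed above 0.05 in each of the 13 alternatives, from 0.0655 to 0.278. Mean CCND1 was higher after TAX in these libraries, and so was mean MYC, within the spread between libraries. The qPCR direction was opposite to that of the separated CCND1 groups here. For MYC the direction here is not resolved, so it cannot be set against the qPCR. The reason for the CCND1 difference was not tested.

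**Figure D5:**
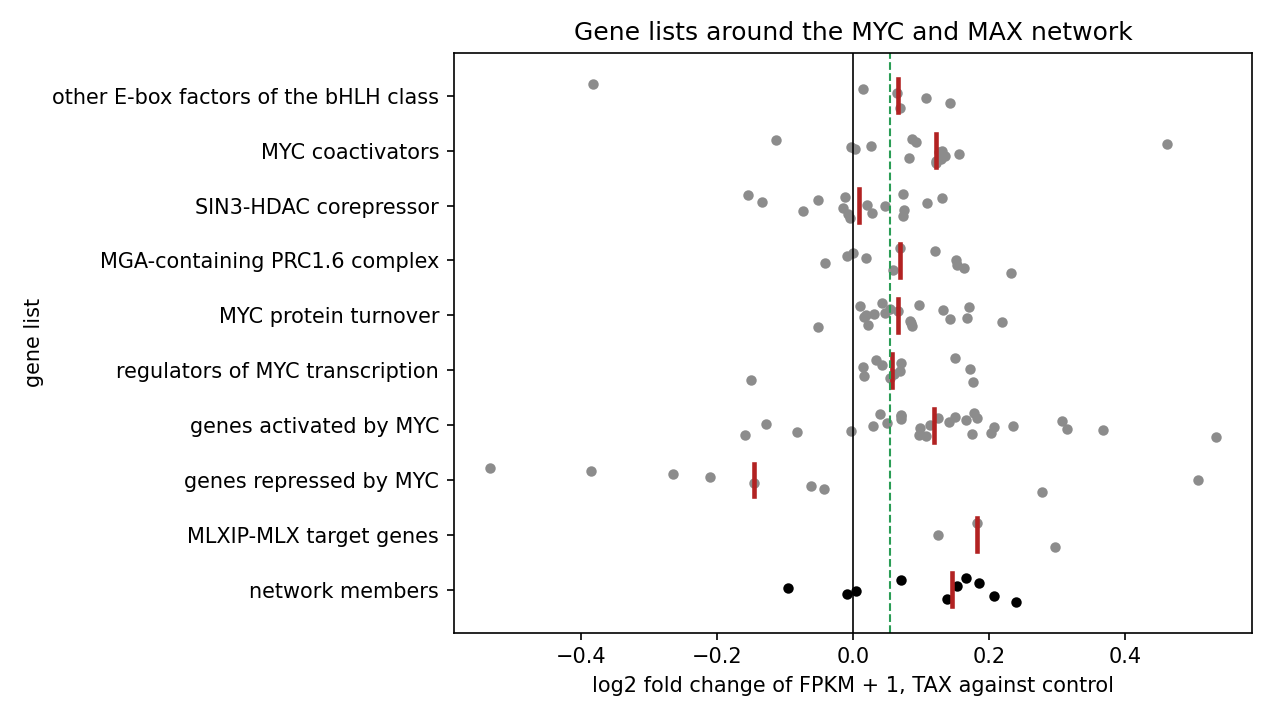
Log2 fold change of FPKM + 1 (horizontal axis) of each tested gene in the pathway lists with at least 3 tested genes and of the 10 network members (vertical axis). Each point is 1 gene, red bars are medians and the dashed line is the median of all tested genes at 0.054. The members spread from -0.10 to 0.24, while ODC1, at 0.53, is the highest of the genes activated by MYC.

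The genes whose profile over the 6 libraries was most like that of MYC were TBC1D10B, RAD21 and ITCH, with Pearson's r of 0.998, 0.996 and 0.995 in log2(FPKM + 1), as a description over 6 libraries that share depth and treatment. RAD21, a cohesin subunit, had 94.4, 102 and 90.3 FPKM in the control and 103, 98.0 and 100.2 FPKM in the TAX replicates. The search began from 8544 other identifiers. Among those without the MSTRG prefix of StringTie, 764 had an r above 0.9 with MYC, so the profile was a common one.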

How the data were processed

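Per the labels, libraries were made from total RNA with an mRNA kit, and the submitters' processing notes name HISAT2 2.2.0, StringTie 2.1.2 and GRCh38. The authors deposited 1 table per library, without pooling, and its decimals were read as FPKM, because their sums differ between libraries and part of the identifiers carry StringTie's MSTRG prefix. The annotation and the filters used are not given in the sources used here. From the deposited FPKM, log2(FPKM + 1) was computed for genes that reached 1 FPKM in 3 or more of the 6 libraries. The design named a count test only if counts were given, so limma was used. Groups were compared over all these genes with limma 3.58.1 in R 4.3.3 (mean-variance trend, no covariate, Benjamini-Hochberg adjustment). Fold changes are on the log2(FPKM + 1) scale, which understates changes of low genes. Single genes were also compared by exact permutation tests in scipy 1.17.1. The limma fit was tested on simulated data.

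The members and the pathway lists were chosen with earlier results of these data known. Named were all members, MYCN, MYCL, MLXIPL, TXNIP, ARRDC4, CCND1, the list genes with an adjusted p under 0.05 or among the 2 smallest p of a list, and the 3 genes most like MYC with a mean of at least 5 FPKM. NME1, DKC1, CDK4, CDKN1A, GADD45A, NDRG2, HK2, PFKFB3, FBXW7 and the marker and overlapping genes were named after their values were seen. PVT1, 1 of the 14 listed regulators of MYC transcription, was not found among the identifiers and is not analysed here. Positions come from GENCODE 29 and promoters from RefSeq. Alternatives were another pseudocount, lower or no filter, quantile normalization, median centring, no trend, a replicate block and leaving out each library.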

Additional observations from a re-analysis of the deposited data

How the results depend on the processing

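Over all 13 alternatives 0 network members passed an adjusted p under 0.05, and MYC, MAX, MXD1, MNT, MGA, MLX and MLXIP kept a log2 fold change above 0. After quantile normalization that of MAX was 0.073 and that of MLX 0.0025. The value of MXD4 was -0.066 after quantile normalization and -0.054 after median centring. With each library left out in turn, MXD4 ranged from -0.049 to 0.049, MXD3 from -0.11 to 0.085 and MXI1 from -0.23 to 0.10. In these fits 0 to 2 members had an unadjusted p under 0.05, beside 773 to 1635 of the 12264 to 12292 genes tested. Over all genes, 39 were called higher and 20 lower, against 25 and 12 with a filter of 0.1 FPKM, 0 and 1 with no filter (1854 at an unadjusted p under 0.05), 47 and 48 after quantile normalization, 46 and 50 after median centring, and 8 to 31 and 7 to 18 with each library left out. Of the pathway lists 1 gene was called, against 0 with no filter, 2 after quantile normalization or median centring and 0 to 3 with each library left out. The causes were not tested. Same-numbered libraries had correlations of deviations of -0.12, -0.33 and -0.17, and libraries of different number had -0.17 to 0.29. Deviations from a mean of 3 libraries depend on each other, so these values cannot show whether the numbers pair the samples. With a replicate block 13 genes were called higher, 13 lower, 0 members and 0 genes of the pathway lists, and ODC1 had an adjusted p of 0.0671 (limma). Depth is unknown, and TXNIP, ARRDC4 and MYCL are too low for the fold scale used.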
